A study of Homo sapiens with 10 samples.

Results

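Histone H3 chaperones hand newly made or recycled histone H3 to DNA, and 9 of their genes with HIRA among them were followed across 10 culture conditions. The genes are HIRA, UBN1, CABIN1, ASF1A, ASF1B, CHAF1A, CHAF1B, DAXX and ATRX. They were found through probe sets that the array annotation assigns to 1 of these symbols only, and the brightest of a gene's probe sets, by its mean over all 10 arrays, stands for the gene. This gave 9 genes with 20 probe sets, of 19775 genes with 41097 such probe sets on the array. HIRA was chosen by its mean coculture difference in the same data, the lowest of all genes tested, so that mean is given without a test. Contrasts of its coculture difference between the lines or with vitamin D3 were tested, on the same values. The other 8 were listed for their roles beside HIRA, with earlier results of the data known.

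The arrays hold THP1, a monocytic leukaemia line used here as macrophages and grown in RPMI, and 2 colorectal carcinoma lines grown in MEM, Hke3 and HCT116. Hke3 is a clone derived from HCT116, so a difference between the lines compares 1 clone with its parent line. Hke3 and HCT116 were each profiled with THP1 coculture plus vitamin D3, with THP1 coculture, with vitamin D3, and alone, while THP1 was profiled with vitamin D3 and alone. In coculture the cells shared medium without touching, and vitamin D3 was given for 24 hours. Each condition has 1 array, all RNA was read as log2 intensity, and 1 log2 unit is a 2-fold difference. With no replicate arrays, the error of a difference is what the fitted model leaves unexplained on these arrays, moderated across genes by limma, and p-values measure only that spread. Since a bulk array reads RNA from all cells of a culture, fewer cells of a kind and less RNA per cell cannot be told apart.

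The labelled cell types matched their markers. The median of 15 macrophage markers was 11.57 and 11.70 log2 in the THP1 arrays, against 5.33 to 5.68 in the 8 colon cancer arrays, and all 10 epithelial markers lay above the median of all values (6.18 log2) in every colon cancer array. Among the colon cancer arrays, the highest median of the macrophage markers was in Hke3 with coculture plus vitamin D3. There the proteoglycan gene SRGN stood at 6.28 log2, against 3.93 to 4.90 in the other 7, and PTPRC, which encodes CD45, was at 4.25. Other markers went the other way: ITGB2 (4.98 log2), SPI1 (5.05), CSF1R (6.49) and AIF1 (6.65) were lowest in that array among the 8. The difference between the 3' and 5' probe sets of ACTB, which rises as RNA quality falls, was -0.015 and 0.095 log2 in THP1, 0.56 to 0.94 in Hke3 and 0.16 to 0.30 in HCT116. The same measure for GAPDH spanned far less. It was -0.107 and -0.105 log2 in THP1, -0.0014 to 0.062 in Hke3 and -0.10 to -0.095 in HCT116. One label field calls the Hke3 array with vitamin D3 untreated, while its title, description and culture field give vitamin D3.

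As background, cells use separate routes to place H3. HIRA is the scaffold of a complex with UBN1 and CABIN1 that deposits the variant H3.3 outside DNA replication, in active genes, promoters and gaps in chromatin. ASF1A and ASF1B are paralogous carriers that bind dimers of H3 and H4, with ASF1A passing them to HIRA and ASF1B tied mainly to dividing cells. CHAF1A and CHAF1B are the large and middle subunits of CAF-1, which loads H3.1 behind replication forks through PCNA. DAXX binds H3.3 and, with the remodeller ATRX, places it at telomeres and other repeats.

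RefSeq (GRCh38.p14) gave start-site sequence for 7 of the 9 genes in 8 windows. The 250 bases before the start are shown for HIRA and for the 3 genes that fell together in coculture (ASF1B, CHAF1A and CHAF1B), 5′ to 3′ on the gene's strand. Capitals mark matches, on either strand, to the E2F core (TTCCCGC or TTCGCGC or TTGCCGC or TTGGCGC) or to the CHR element TTTGAA, letters known from promoters of cell cycle genes.
HIRA, chr22:19431734-19431983, strand minus: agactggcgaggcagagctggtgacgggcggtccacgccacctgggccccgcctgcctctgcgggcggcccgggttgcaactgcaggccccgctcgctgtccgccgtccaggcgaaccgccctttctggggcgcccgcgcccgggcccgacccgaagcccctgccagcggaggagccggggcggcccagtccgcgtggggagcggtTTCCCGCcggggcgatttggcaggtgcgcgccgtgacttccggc
ASF1B, chr19:14136590-14136839, strand minus: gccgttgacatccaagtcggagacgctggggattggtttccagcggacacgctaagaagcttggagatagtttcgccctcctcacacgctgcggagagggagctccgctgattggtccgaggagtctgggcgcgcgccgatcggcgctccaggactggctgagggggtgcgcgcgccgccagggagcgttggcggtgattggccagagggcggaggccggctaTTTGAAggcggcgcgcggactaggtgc
CHAF1A, chr19:4402390-4402639, strand plus: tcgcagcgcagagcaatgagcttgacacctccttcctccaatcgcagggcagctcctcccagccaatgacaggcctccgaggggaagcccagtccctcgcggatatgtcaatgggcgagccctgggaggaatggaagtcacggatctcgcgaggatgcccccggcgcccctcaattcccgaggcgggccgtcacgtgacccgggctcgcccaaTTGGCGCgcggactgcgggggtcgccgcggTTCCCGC
CHAF1B, chr21:36385142-36385391, strand plus: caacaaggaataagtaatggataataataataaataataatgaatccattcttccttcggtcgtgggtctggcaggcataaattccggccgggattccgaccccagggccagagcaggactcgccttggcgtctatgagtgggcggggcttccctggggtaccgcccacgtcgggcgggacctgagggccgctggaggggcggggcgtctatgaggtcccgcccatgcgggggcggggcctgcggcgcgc
HIRA held 1 E2F core match, 44 to 38 bases before the start, and no CHR match. CHAF1A held 2 E2F core matches, starting 37 and 7 bases before the start. ASF1B held 1 CHR match, 27 to 22 bases before the start. CHAF1B held neither set of letters. The windows shown were picked by the coculture results. Among those not shown, UBN1, which was not called for coculture, held 1 CHR match, 113 to 108 bases before the start. CABIN1 and ASF1A, also not called for it, held neither set. The E2F core letters occur in 10.9% and the CHR letters in 13.3% of the 35116 windows of this length, no match overlapped another, and a match describes letters only.

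HIRA was far lower in Hke3 than in HCT116, and lower with coculture than without it in both lines. The probe set 217427_s_at read 6.55 log2 in Hke3 with coculture plus vitamin D3, 6.91 with coculture, 8.46 with vitamin D3 and 8.28 alone. In HCT116 it read 9.64 log2 with coculture plus vitamin D3, 9.46 with coculture, 9.95 with vitamin D3 and 10.00 alone. In THP1 it read 9.69 log2 with vitamin D3 and 9.78 alone. All 4 Hke3 arrays lay below all HCT116 and THP1 arrays, and within each line both cocultured arrays lay below both arrays without coculture. HIRA was chosen by its mean coculture difference, so the separation by coculture is not independent of that choice.

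**Figure D1:**
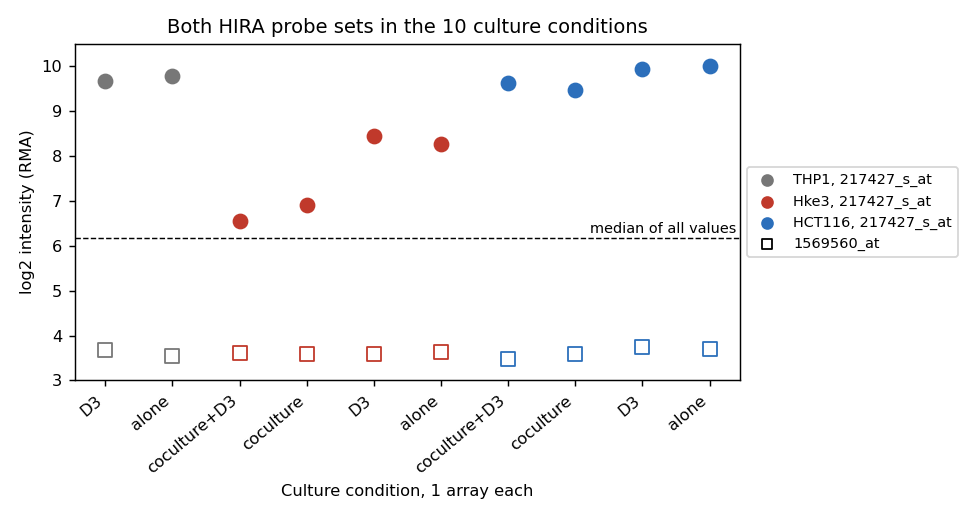
Log2 intensity of both HIRA probe sets (filled circles 217427_s_at, open squares 1569560_at) in each of the 10 culture conditions, 1 array each, with THP1, Hke3 and HCT116 from left to right. The bright probe set reads 6.55 and 6.91 log2 in cocultured Hke3, and the dim one stays between 3.47 and 3.73 log2 throughout; the dashed line is the median of all values, 6.18 log2.

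Sorted by level, the 10 HIRA values ran HCT116 alone, HCT116 with vitamin D3, THP1 alone, THP1 with vitamin D3, HCT116 with coculture plus vitamin D3, HCT116 with coculture, Hke3 with vitamin D3, Hke3 alone, Hke3 with coculture and Hke3 with coculture plus vitamin D3. The spread of a difference between 2 arrays was 0.18 log2, from the moderated residual of the model with a coculture by line term and taken to hold for THP1 too. Of the 9 gaps between neighbours, 3 were wider than this spread. They were 1.01 log2 between the lowest HCT116 and the highest Hke3 array, 1.37 between Hke3 alone and Hke3 with coculture, and 0.36 between the cocultured Hke3 arrays without and with vitamin D3. The other 6 gaps did not exceed it. The spread is 1 SD, estimated with 3 residual degrees of freedom on arrays that include the Hke3 and HCT116 values compared here. No gap was tested, so the 0.36 gap is no evidence of a vitamin D3 difference.

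These values rest on 1 probe set. The second HIRA probe set, 1569560_at, read 3.58 to 3.63 log2 in Hke3, 3.47 to 3.73 in HCT116, and 3.67 and 3.55 in THP1 with vitamin D3 and alone, below the median of all values on every array. It was too dim to be tested. Levels of separate probe sets are not comparable with each other.

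The difference between lines is not the contrast HIRA was chosen by, and it was tested. HIRA averaged 7.55 ± 0.96 log2 in Hke3 and 9.76 ± 0.26 in HCT116 (SD, n = 4 arrays each), a difference of -2.22 ± 0.23 log2 (SE), or 4.65-fold lower in Hke3, with a 95% interval of -2.74 to -1.69 (limma, adjusted p = 0.000243, lower in 4 of 4 pairs). Over all 13243 genes tested, 40.5% passed for cell line with 24.8% higher and 15.7% lower in Hke3, and HIRA ranked 23 by the size of its difference. The pairs differed by -1.72 log2 alone, -1.49 with vitamin D3, -2.56 with coculture and -3.09 with both, so the mean was 3.05-fold lower without coculture and 7.09-fold lower with it. The additive model counts this dependence on coculture as unexplained spread, and its moderated residual SD for HIRA was 0.33 log2. With a coculture by line term it was 0.13 log2. Averaging both HIRA probe sets, which mixes in the dim one, gave -1.12 log2 (adjusted p = 0.000134). The 3' to 5' measure of ACTB was higher in every Hke3 array than in any HCT116 array, and its part in the line difference was not tested.

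In coculture, the HIRA difference was -1.91 log2 in Hke3 with vitamin D3, -1.37 in Hke3 without it, -0.31 in HCT116 with vitamin D3 and -0.54 in HCT116 without it. The mean of the pairs was -1.64 log2 in Hke3, 3.12-fold lower with coculture, and -0.42 in HCT116, 1.34-fold lower. The choice of HIRA used the mean of these 4 values, -1.03 log2, the lowest of all genes tested, so no test is given for it. Values with and without coculture overlapped between the lines but not within either line, which is not independent of that choice. Of the 15 macrophage markers, 6 were bright enough to test for coculture in the colon cancer arrays, and 1 was higher, HLA-DRA, an antigen presentation gene (0.46 log2, limma, adjusted p = 0.0481). SRGN differed by 0.69 log2 (adjusted p = 0.139), and CSF1R, AIF1, LAPTM5 and LST1 by -0.067, 0.027, 0.011 and -0.0036 log2, none of which passed. The median of the markers was 5.43 to 5.68 log2 in the cocultured Hke3 arrays, against 5.33 to 5.55 without coculture, and PTPRC stood at 4.25 and 4.42 log2 in cocultured Hke3. The part of these markers in the HIRA difference was not tested.

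Whether the coculture difference of HIRA differed between the lines is another contrast on the same 8 arrays, and it passed. It is built from the same coculture differences whose mean chose HIRA, so its p-value is not free of that choice. The difference in Hke3 minus that in HCT116 was -1.22 ± 0.18 log2 (SE), with a 95% interval of -1.64 to -0.79 (limma, adjusted p = 0.0163). For this contrast 4.21% of genes passed, 1.87% in the positive and 2.34% in the negative direction, and HIRA ranked 43 by size. Leaving out 1 array kept the value between -1.45 and -0.99 log2 but lost the call in 4 of 8 cases: without HCT116 alone (adjusted p = 0.0757), HCT116 with vitamin D3 (0.0738), HCT116 with coculture plus vitamin D3 (0.0722) or Hke3 with vitamin D3 (0.073). Averaging both probe sets gave -0.52 log2 (adjusted p = 0.0269). Within Hke3, the 3' to 5' measure of ACTB was 0.56 and 0.62 log2 with coculture, against 0.72 and 0.94 without it; its part in the result was not tested.

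Neither partner of HIRA in its complex passed for coculture. UBN1, the ubinuclein subunit, read 9.61 and 9.92 log2 in cocultured Hke3 (with and without vitamin D3), against 9.98 and 9.90 without coculture, and in HCT116 9.57 and 9.74 log2, against 9.70 and 9.87. Its coculture difference was -0.16 ± 0.07 log2 (SE; limma, adjusted p = 0.198), and its line difference was 0.13 log2 with a 95% interval of -0.029 to 0.29 (adjusted p = 0.167). CABIN1, the calcineurin-binding subunit, was higher in Hke3. It read 8.77, 8.67, 8.71 and 8.61 log2 in Hke3 (coculture plus vitamin D3, coculture, vitamin D3 and alone), against 8.19, 8.10, 8.27 and 8.26 log2 in HCT116. The difference of 0.49 ± 0.06 log2 (SE), 1.40-fold, passed (limma, adjusted p = 0.000467, 4 of 4 pairs), and its second probe set gave 0.51 log2 (adjusted p = 0.00157). Its coculture difference was -0.028 log2, with a 95% interval of -0.16 to 0.11 (adjusted p = 0.807). UBN2, the paralog of UBN1, was also higher in Hke3, by 0.36 ± 0.05 log2 (SE; limma, adjusted p = 0.00143).

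**Figure D2:**
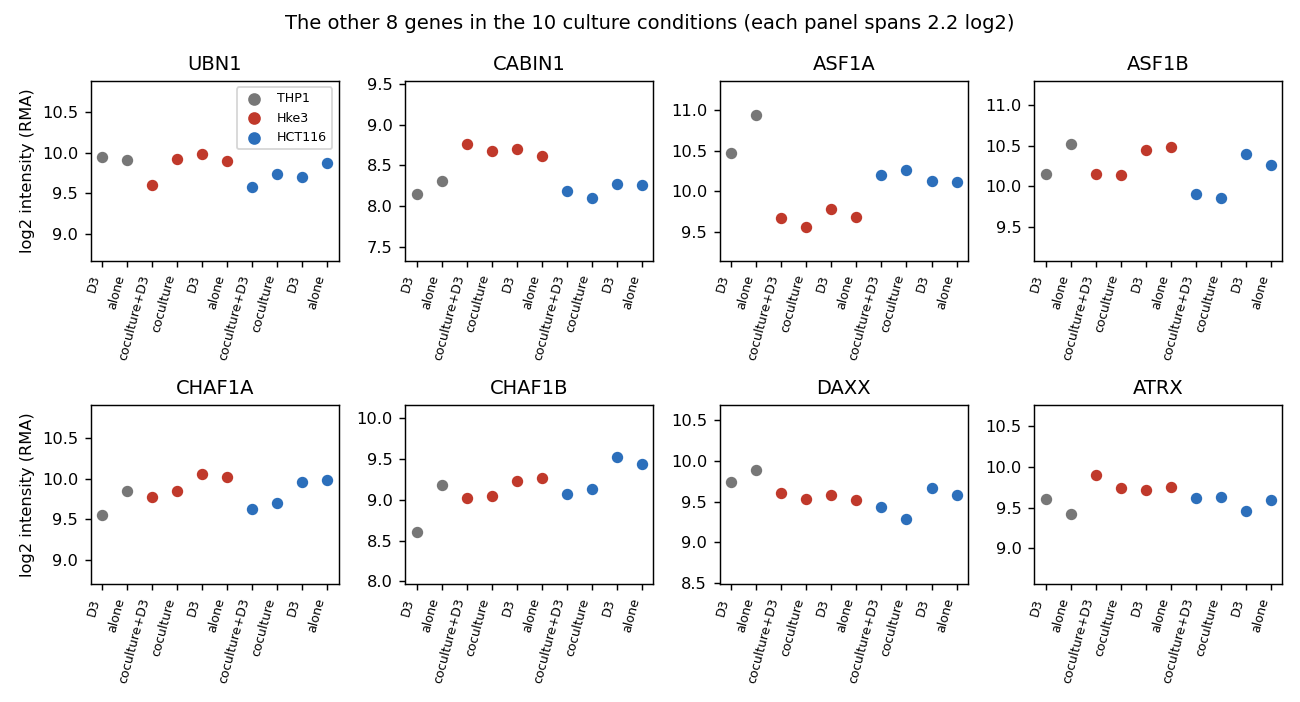
Log2 intensity of UBN1, CABIN1, ASF1A, ASF1B, CHAF1A, CHAF1B, DAXX and ATRX in the 10 culture conditions, 1 array each, THP1, Hke3 and HCT116 from left to right, with panels of equal height in log2 units. CABIN1 is higher and ASF1A lower in all Hke3 arrays than in HCT116, and ranges within a gene run from 0.41 log2 for UBN1 to 1.38 log2 for ASF1A.

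The ASF1 paralogs took opposite directions between the lines. ASF1A read 9.68, 9.56, 9.79 and 9.69 log2 in Hke3 (coculture plus vitamin D3, coculture, vitamin D3 and alone), against 10.20, 10.26, 10.13 and 10.11 log2 in HCT116. It was 1.41-fold lower in Hke3 (log2 -0.49 ± 0.07, SE; limma, adjusted p = 0.00085, 4 of 4 pairs), and its second probe set, also lower, differed by -0.30 log2 (adjusted p = 0.00896). ASF1A showed no called coculture difference (-0.0044 log2, 95% interval -0.16 to 0.15, adjusted p = 0.978). ASF1B read 10.15, 10.14, 10.45 and 10.49 log2 in Hke3 in the same order, against 9.91, 9.86, 10.39 and 10.26 log2 in HCT116. It was higher in Hke3 by 0.20 ± 0.06 log2 (SE; limma, adjusted p = 0.0228, 4 of 4 pairs). Leaving out any 1 array other than Hke3 with vitamin D3 or HCT116 with vitamin D3 lost this call, with adjusted p up to 0.0792.

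ASF1B and both CAF-1 subunits fell with coculture. Of the 8 genes other than HIRA, 3 passed for coculture, all lower, against 7.82% of all genes tested, 3.76% higher and 4.05% lower. The median of the 8 genes was -0.14 log2, against -0.016 over all genes tested. ASF1B averaged 10.01 ± 0.15 log2 with coculture and 10.40 ± 0.10 without (SD, n = 4 arrays each), and fell by 0.39 on the log2 scale, 1.31-fold (SE 0.06; limma, adjusted p = 0.0144, 4 of 4 pairs). CHAF1A, the large CAF-1 subunit, read 9.77 and 9.85 log2 in cocultured Hke3 (with and without vitamin D3), against 10.06 and 10.01, and 9.63 and 9.70 log2 in cocultured HCT116, against 9.96 and 9.98. It fell by 0.27 on the log2 scale (SE 0.05; limma, adjusted p = 0.0268, 4 of 4 pairs). CHAF1B, the middle subunit, read 9.02 and 9.05 log2 in cocultured Hke3, against 9.23 and 9.26, and 9.08 and 9.13 log2 in cocultured HCT116, against 9.53 and 9.44. It fell by 0.29 on the log2 scale (SE 0.06; limma, adjusted p = 0.0279, 4 of 4 pairs).

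The CHAF1A and CHAF1B calls were lost when any 1 colon cancer array was left out. Without HCT116 with vitamin D3, or without HCT116 with coculture plus vitamin D3, none of the 8 genes passed, and without any 1 of the other 6 colon cancer arrays only ASF1B did. The differences kept their sign, with ASF1B between -0.42 and -0.35 log2, CHAF1A between -0.30 and -0.25 and CHAF1B between -0.32 and -0.25. With the other 2 factors as a block, ASF1B alone passed (adjusted p = 0.0409, against 0.0662 for CHAF1A and 0.067 for CHAF1B). No interaction with the line passed for any of the 3 genes; the difference in Hke3 exceeded that in HCT116 by 0.12 log2 for ASF1B (95% interval -0.11 to 0.35), 0.084 for CHAF1A (-0.14 to 0.30) and 0.17 for CHAF1B (-0.055 to 0.39).

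**Figure D3:**
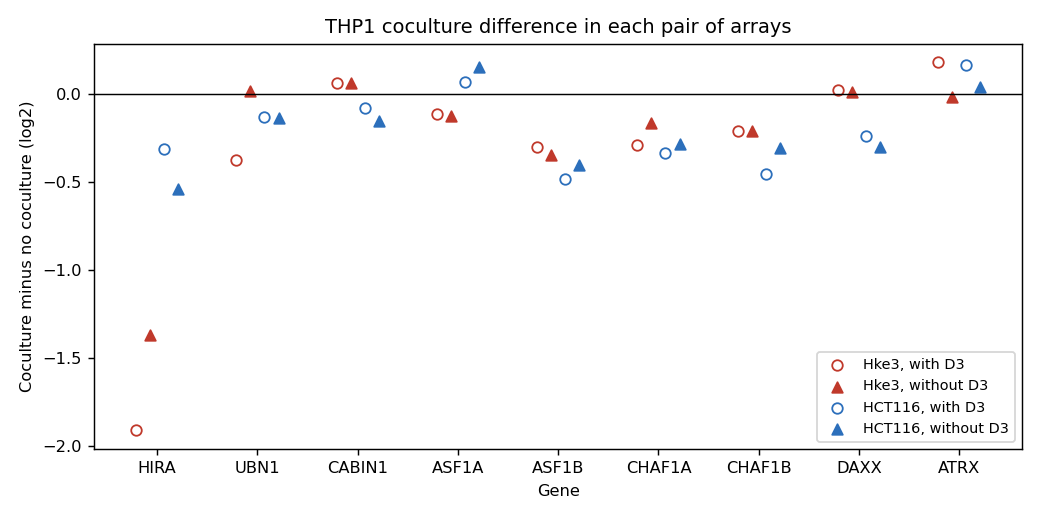
Coculture minus no coculture (log2) for each of the 9 genes in the 4 pairs of arrays, Hke3 in red and HCT116 in blue, with vitamin D3 as open circles and without it as triangles. HIRA spreads from -1.91 to -0.31 log2, while ASF1B, CHAF1A and CHAF1B lie below 0 in all 4 pairs.

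The CHAF1A probe sets varied in size. The chosen 214426_x_at is of a type that can match other transcripts. The probe set 203976_s_at fell with coculture by 0.42 on the log2 scale (limma over probe sets, adjusted p = 0.0238), while 203975_s_at differed by -0.24 log2 (adjusted p = 0.212). Between the lines the same 3 probe sets gave 0.11 (adjusted p = 0.171), 0.51 (0.000832) and 0.24 log2 (0.111), all with Hke3 on the higher side. The remaining one, 229808_at, stayed at 4.24 to 4.81 log2 and was too dim to test.

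Neither DAXX nor ATRX passed for coculture. DAXX read 9.60 and 9.53 log2 in cocultured Hke3 (with and without vitamin D3), against 9.58 and 9.52, and 9.43 and 9.28 log2 in cocultured HCT116, against 9.67 and 9.58. Its coculture differences were 0.023 and 0.011 log2 in Hke3 and -0.24 and -0.30 in HCT116, but the contrast between the lines did not pass (0.29 log2, 95% interval 0.074 to 0.50, adjusted p = 0.124). ATRX differed with coculture by 0.092 log2 (95% interval -0.047 to 0.23, adjusted p = 0.375). Its chosen probe set was higher in Hke3 by 0.20 ± 0.06 log2 (SE; limma, adjusted p = 0.0281, 4 of 4 pairs), at 9.90, 9.74, 9.72 and 9.76 log2 in Hke3, against 9.62, 9.63, 9.46 and 9.59 log2 in HCT116. That call was lost without any 1 array other than HCT116 alone or Hke3 with coculture, with adjusted p up to 0.0891.

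The ATRX probe sets disagreed between the lines. The probe sets 208860_s_at and 208859_s_at were higher in Hke3 by 0.80 and 0.55 log2 (limma over probe sets, adjusted p = 6e-05 and 0.00115), whereas 211022_s_at was lower, with a difference of -0.68 log2 (adjusted p = 0.0018). That probe set, the dimmest of the 4, read 6.34, 6.44, 6.74 and 6.32 log2 in Hke3 (coculture plus vitamin D3, coculture, vitamin D3 and alone), against 7.13, 7.30, 6.995 and 7.14 log2 in HCT116. The lines did not overlap, and the vitamin D3 arrays lay closest. No direction is therefore given for ATRX as a gene.

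**Figure D4:**
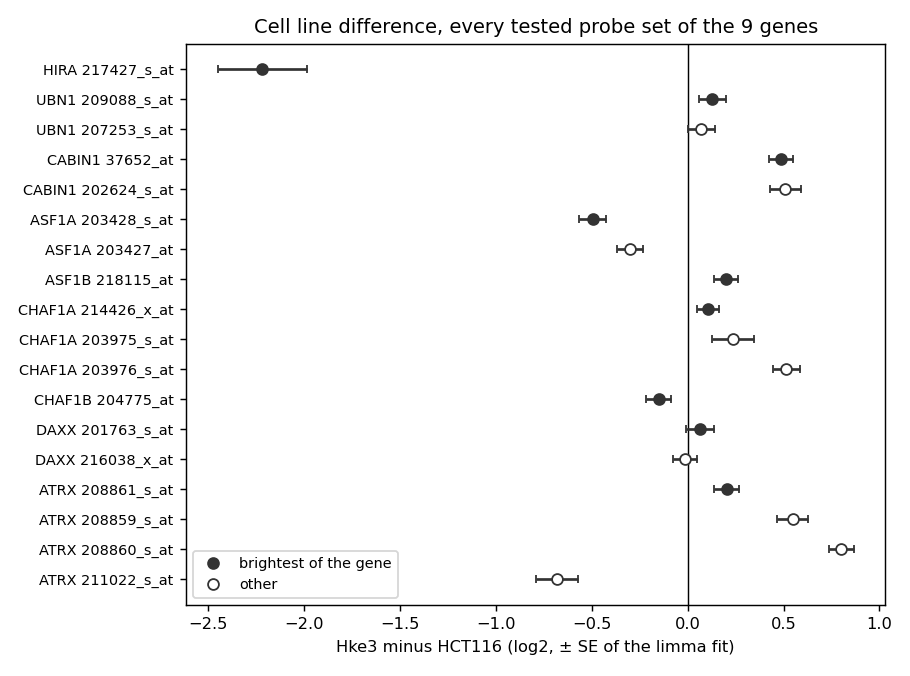
Hke3 minus HCT116 (log2, dots with the SE of the limma fit over probe sets) for the 18 probe sets of the 9 genes bright enough to test, filled where the probe set represents its gene. HIRA stands at -2.22 log2, both CABIN1 probe sets near 0.5, both ASF1A probe sets below 0, and the 4 ATRX probe sets on both sides of 0.

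Of the 8 genes other than HIRA, 4 passed for cell line by their chosen probe sets: CABIN1, ASF1B and ATRX higher and ASF1A lower in Hke3. The ATRX probe sets disagreed, so this gives no direction for ATRX as a gene. With 40.5% of all genes passing, the count says nothing particular about these genes. CHAF1A (0.11 log2, adjusted p = 0.144), CHAF1B (-0.15, 0.0764) and DAXX (0.065, 0.494) did not pass. The HIRA difference was the largest in size of the 9.

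Vitamin D3 moved none of the 9 genes past the threshold in the colon cancer lines, and limma called 0% of all genes tested (375 had an unadjusted p under 0.05). HIRA differed by -0.015 log2 with a 95% interval of -0.54 to 0.51, and its 4 pairs gave -0.36 in Hke3 with coculture, 0.18 in Hke3 without it, 0.17 in HCT116 with coculture and -0.054 in HCT116 without it. That interval comes from the additive model, whose spread for HIRA includes the coculture by line difference. For the other 8 genes the differences ran from -0.14 log2 for UBN1 to 0.093 for DAXX. The coculture difference of HIRA did not differ detectably with vitamin D3 (-0.16 log2, 95% interval -1.34 to 1.02, limma, adjusted p = 0.999), and 0% of genes passed for that contrast. Its model also lacks the coculture by line term. The moderated residual SD for HIRA was 0.35 log2 there, against 0.13 in the model with that term.

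In THP1, both ASF1 paralogs and both CAF-1 subunits read lower with vitamin D3, in a single pair of arrays without a test. CHAF1B read 8.60 log2 with vitamin D3 and 9.18 alone, ASF1A 10.47 and 10.94, ASF1B 10.15 and 10.52, and CHAF1A 9.55 and 9.85. HIRA differed by -0.095 log2, UBN1 by 0.032, CABIN1 by -0.16, DAXX by -0.15 and ATRX by 0.19. The macrophage markers moved both ways on the same arrays. CD14 stood at 13.77 log2 with vitamin D3 and 8.29 alone, and LYZ at 11.23 and 9.45. HLA-DRA stood at 8.36 and 11.21, LST1 at 11.20 and 11.72, and FCER1G at 12.14 and 12.63.

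Against the colon cancer lines without coculture, THP1 had more HIRA and ASF1A signal and less of both CAF-1 subunits. HIRA averaged 9.73 ± 0.07 log2 in THP1 (SD, n = 2) and 9.17 ± 0.93 in the colon cancer arrays (SD, n = 4), a difference of 0.56 ± 0.09 log2 (SE; limma, adjusted p = 0.003); the colon cancer mean lies between the 2 lines, and both THP1 arrays lay below both HCT116 arrays and above both Hke3 arrays without coculture. ASF1A was higher in THP1 by 0.78 ± 0.14 log2 (SE; limma, adjusted p = 0.00453), above every colon cancer array. CHAF1A and CHAF1B were lower, with differences of -0.31 and -0.47 log2 (limma, adjusted p = 0.0381 and 0.0417). Of the 9 genes, 4 passed, against 66.3% of the 13778 genes tested, 27.2% higher and 39.1% lower in THP1. Both CAF-1 calls were lost with cyclic loess normalisation and without THP1 with vitamin D3, HCT116 with vitamin D3, Hke3 alone or Hke3 with vitamin D3, and that of CHAF1A also without HCT116 alone, while the HIRA and ASF1A calls held in all 13 alternatives run for this comparison.

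Of 21 further histone chaperones and assembly factors tested, 4 fell with coculture and none rose: DNAJC9, a co-chaperone for H3 and H4 (fell by 0.34 on the log2 scale), NASP, which guards the soluble pool of H3 and H4 (0.30), IPO4, their nuclear importer (0.25), and SUPT16H, a subunit of FACT (0.21; limma, adjusted p from 0.0177 to 0.0493). For coculture 4.05% of all genes tested were called lower and 7.82% called either way. The list's median was -0.18 log2, against -0.016 over all genes tested. Of 20 DNA replication genes, 14 fell with coculture and none rose, among them the helicase subunits MCM5 and MCM2, the clamp PCNA that recruits CAF-1 (log2 -0.41) and UHRF1; the median was -0.31 log2. Against the same 4.05% lower over all genes, these counts rest on all 8 arrays: coculture calls over all genes numbered 1035, and 39 to 459 with 1 array left out. That replication genes fell in coculture was known when the lists were made and is no independent support. H3-3A, a gene for H3.3, was higher in Hke3 by 0.49 ± 0.07 log2 (SE; limma, adjusted p = 0.00152). It read 6.77 to 7.55 log2 in the colon cancer arrays, against the median of all values of 6.18. H3-3B, another H3.3 gene, had no probe set mapped to 1 symbol only, so H3.3 RNA as a whole was not read. CENPA, the centromeric H3, differed by -0.12 (adjusted p = 0.141). Neither H3-3A nor CENPA passed for coculture (limma, adjusted p = 0.351 and 0.587).

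Of 14 neighbours of HIRA on chromosome 22 that were tested, 3 were higher in Hke3 (ZDHHC8, SLC25A1 and TRMT2A), CDC45 was lower (log2 difference -0.20), and 10 did not pass; the median was 0.026 log2. Over all genes 40.5% passed for cell line, 24.8% higher and 15.7% lower, so the neighbours' count is not above that share. MRPL40, the protein-coding gene next to HIRA, differed by 0.0049 log2 (adjusted p = 0.96) and C22orf39, the next one on, by 0.083 (adjusted p = 0.309). With coculture, CDC45, a helicase cofactor in replication, fell by 0.39 on the log2 scale (limma, adjusted p = 0.0136) and RANBP1 by 0.25 (adjusted p = 0.0301), 2 of 14 neighbours against 4.05% lower over all genes, while MRPL40 differed by -0.17 (adjusted p = 0.12).

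Among 920 tested genes that ranged over at least 1 log2 in the 8 colon cancer arrays, the profile most like that of HIRA was BAX, a pro-apoptotic BCL2 relative (Pearson r = 0.991 over 8 arrays). WTAP, a subunit of the RNA adenosine methyltransferase complex (0.983), PDAP1 (0.98), the zinc transporter gene SLC39A7 (0.979) and the splicing factor gene U2AF1 (0.977) followed. BAX read 7.65 and 7.70 log2 in cocultured Hke3 (with and without vitamin D3), against 8.48 and 8.24 without coculture, and in HCT116 8.87 and 8.94 log2, against 8.97 and 8.999. The most unlike were PFKP and ENO2, both of glycolysis (r = -0.994 and -0.989), and LOC101927263 (r = -0.99). These 8 arrays are the ones that show the HIRA differences, they fall apart by line, and each gene shares its arrays with HIRA, so the values describe likeness only. Among the members, r with HIRA was 0.893 for ASF1A, 0.668 for CHAF1B, -0.885 for ATRX and -0.87 for CABIN1, and between -0.17 and 0.029 for UBN1, ASF1B, CHAF1A and DAXX.

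**Figure D5:**
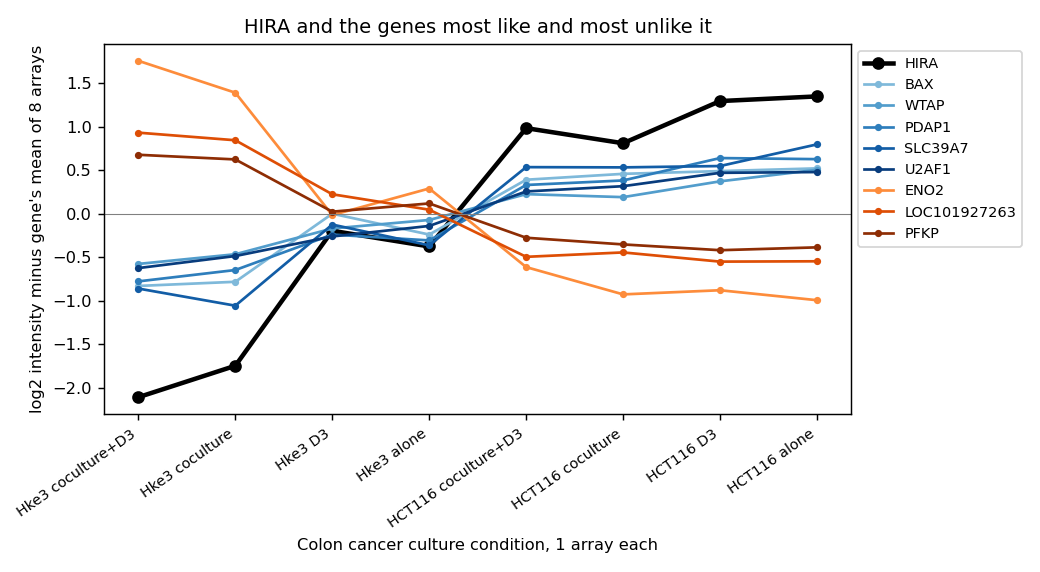
Log2 intensity minus each gene's mean over the 8 colon cancer arrays, for HIRA (black), the 5 genes most like it (blue) and the 3 most unlike it (orange), with Hke3 conditions left of HCT116. HIRA spans 3.46 log2, more than any of the others, and the cocultured Hke3 arrays stand apart from the rest.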

How the data were processed

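The deposited values are log2 intensities, 1 per probe set, from 10 one-colour arrays. Per the submitters' processing notes the authors used RMA and affy. Versions, and whether the arrays were normalised together, are not given in the sources used here. Values ran from 2.98 to 15.2 log2, with array medians from 6.15 to 6.21. The precision is limited by the number of arrays.

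Of 54675 probe sets, 41097 map to 1 symbol; 1801 map to several and were left out. Symbols were updated through Entrez IDs. Genes entered a comparison if their value on any of its arrays was above the median of the table, 6.18 log2. limma 3.58.1 in R 4.3.3 fitted cell line, coculture and vitamin D3 additively to the 8 colon cancer arrays (4 residual degrees of freedom), each interaction on its own (3), and line plus vitamin D3 to the 6 arrays without coculture (2). Tests were two-sided with Benjamini-Hochberg adjustment over all genes and a threshold of 0.05. The members, lists and tests were chosen with earlier results of these data known. Named genes are the members, the 5 most and 3 least like HIRA, and up to 4 list members by smallest p, plus the macrophage markers and the line values of MRPL40 and C22orf39, chosen after their values were seen. Alternatives were no dim filter, a filter at 8.14 log2, the mean of probe sets, single probe sets, median centring, cyclic loess, trend and robust eBayes, each array left out, a block of the other 2 factors, and no vitamin D3 term; a coculture by line term was added after seeing the data. The models were tested on simulated data. Figures used matplotlib 3.10.9.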

Additional observations from a re-analysis of the deposited data

Results flagged for a closer look

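The coculture difference of HIRA was larger in size in Hke3 than in HCT116, and the contrast between the lines passed. It uses the same coculture differences whose mean chose HIRA, so its p-value is not free of that choice. The Hke3 difference minus the HCT116 difference was -1.22 log2 (limma, adjusted p = 0.0163), with -1.91 and -1.37 log2 in the Hke3 pairs (with and without vitamin D3) and -0.31 and -0.54 log2 in the HCT116 pairs. The value stayed below 0 in all 16 alternatives run for it and passed in 12 of them. With 1 array left out it passed in 4 of 8 fits. The alternatives reuse the same arrays, so they do not remove the dependence on that choice.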

How the results depend on the processing

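With arrays paired by a block of the other 2 factors, 1 of the 8 genes other than HIRA passed for coculture, against 3 without it. Leaving out 1 array gave 0 to 1 such genes for coculture, 2 to 3 for cell line (4 with all arrays) and 1 to 5 for THP1 against the colon cancer lines (3 with all arrays, where a lone THP1 array is assumed to vary like the others); for vitamin D3 and both interactions it gave 0, as did all other alternatives. The HIRA line difference passed in all 18 alternatives, from -2.42 to -1.12 log2. Its coculture difference ran from -1.23 to -0.57. Its contrast between lines ran from -1.45 to -0.99 with 1 array left out. No called difference of a member changed sign in any alternative. All genes called for coculture numbered 1035, against 39 to 459 with 1 array left out, 259 with the block, 656 without the dim filter and 2581 with the added coculture by line term. For the contrast between lines they numbered 557, against 101 to 282 with 1 array left out, 277 with no filter, 973 with the stricter filter, 865 over probe sets and 1169 with trend and robust fitting. Over probe sets, 10283 passed for cell line, against 5364 over genes, and 17041 for THP1, against 9136. For the coculture by vitamin D3 contrast, with 652 genes at an unadjusted p under 0.05, 2 passed with the mean of probe sets and 1 without HCT116 with coculture, against 0. HIRA rests on 1 probe set, which lies close to the dim threshold in cocultured Hke3.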
